A study of Mus musculus with 6 samples.

Results

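Kyat3 and related aminotransferase genes of the mouse were examined in neuro2a (N2a) cells, a mouse neuroblastoma line, after knockdown of 2 subunits of the transcription factor NF-Y. Kyat3 was chosen by its measured change in these same arrays, because its signal was much lower after knockdown and varied little within either group. Kyat1, Aadat and Got2 were added because their products can also act on kynurenine, and Got1 as the cytosolic counterpart of Got2. All 5 genes had a probe, among 20145 genes with a named probe on the array. They had 7 probes between them, of which 6 probes of 4 genes passed the filter on dim probes, so that 4 of the 16514 genes tested were members. The change of Kyat3 is therefore given below as a description, without a test. Kyat1, Got1 and Got2 were chosen for what they encode and not for their values, though with earlier results of these data known.

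The series consisted of 6 single-colour microarrays, with 3 in each group. Control cells (n = 3) were transfected with an empty miR RNAi vector, and knockdown cells (n = 3) with vectors carrying miR RNAi hairpins against NF-YA and against NF-YC, so that both groups had been through transfection and carried the vector backbone. The cells were incubated for 2 days afterwards. Total RNA from whole cultures was hybridised, and the labels did not say whether the replicates were separate cultures, so that the p-values measure only the spread between these samples, which may be technical. Signals are given as log2 of the processed intensity relative to the 75th percentile of the same array, a unit in which levels of different probes cannot be compared with each other. A gene was called when its adjusted p was below 0.05 in limma and its fold change exceeded 1.5.

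Kynurenine aminotransferases are pyridoxal phosphate-dependent enzymes that convert kynurenine, a breakdown product of tryptophan, to kynurenic acid, which antagonises ionotropic glutamate receptors in the brain. Kyat1 and Kyat3 encode close relatives that also act as glutamine transaminases and cysteine conjugate beta-lyases, whereas Aadat encodes the enzyme that also transaminates aminoadipate. Got1 and Got2 encode the cytosolic and mitochondrial aspartate aminotransferases of the malate-aspartate shuttle, and the mitochondrial enzyme can also use kynurenine.

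NF-Y is a trimer of NF-YA, NF-YB and NF-YC that binds the CCAAT box, and the promoters of Kyat3, Got1 and Kyat1 are shown because they differed in the number of CCAAT boxes. The sequences are the 250 bases before the annotated start (RefSeq, build GRCm38.p6) at chr3:142700798-142701047 on the plus strand for Kyat3, chr19:43524606-43524855 on the minus strand for Got1 and chr2:30205848-30206097 on the minus strand for Kyat1. They run 5′ to 3′ on the strand of the gene, and the capitals mark CCAAT or, for the motif on the other strand, ATTGG.
Kyat3: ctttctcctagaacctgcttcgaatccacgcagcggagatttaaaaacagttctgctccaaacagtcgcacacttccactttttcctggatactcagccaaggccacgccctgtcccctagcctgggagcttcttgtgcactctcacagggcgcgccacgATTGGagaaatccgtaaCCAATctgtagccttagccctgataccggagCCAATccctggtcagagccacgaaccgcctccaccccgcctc
Got1: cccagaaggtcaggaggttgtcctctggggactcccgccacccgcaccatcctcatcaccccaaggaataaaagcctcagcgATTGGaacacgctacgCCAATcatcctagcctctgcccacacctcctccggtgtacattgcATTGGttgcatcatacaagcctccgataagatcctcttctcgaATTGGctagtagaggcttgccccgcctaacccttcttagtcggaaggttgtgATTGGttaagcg
Kyat1: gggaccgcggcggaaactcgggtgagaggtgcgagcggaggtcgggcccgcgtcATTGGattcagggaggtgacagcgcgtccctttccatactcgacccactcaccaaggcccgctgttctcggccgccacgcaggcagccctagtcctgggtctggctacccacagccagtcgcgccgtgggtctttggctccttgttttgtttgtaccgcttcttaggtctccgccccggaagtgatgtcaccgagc

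The libraries were alike in brightness. Processed signals at the 75th percentile were 718 to 754 intensity units across the 6 arrays, and 61.9% to 66.2% of spots were well above background, with the lowest share on the second knockdown array. Pearson correlations over all probes tested were 0.989 to 0.994 within groups and 0.987 to 0.990 between groups. All arrays were on 1 slide, whose first row held the 3 control arrays and the first knockdown array and whose second row held the other 2 knockdown arrays. Of the targeted genes, Nfya was lower by 0.76 (log2, SE 0.055, adjusted p = 0.00130) and Nfyc by 1.81 (SE 0.045, adjusted p = 0.000326). The untargeted subunit gene Nfyb was 0.83 higher (SE 0.060, limma adjusted p = 0.00132). For none of the 3 genes did the groups overlap, as was so downwards for 27.0% and upwards for 27.7% of all genes. All 11 markers of sympathetic neuroblasts on the list were well above background, and 1 of them, Th, was called lower. Markers of glia, of fibroblasts and endothelium, and of immune cells were listed as well. Of 14 tested, 1 was called lower, Col1a1 at -0.77 (SE 0.20, limma adjusted p = 0.0493), and 1 higher, Pdgfra at 1.29 (SE 0.088, limma adjusted p = 0.00114). Over all genes tested, 4.99% were called lower and 3.91% higher. The summed linear signal of the 5 fibroblast and endothelial markers, relative to the 75th percentile, was 0.356 to 0.365 in control and 0.368 to 0.409 in knockdown, with Cdh5 not well above background on any array. The other sums leaned the other way, with overlapping ranges. They were 0.636 to 0.702 in control and 0.576 to 0.646 in knockdown for glial markers, and 2.04 to 2.52 and 1.93 to 2.11 for immune markers. Each sum adds unlike probes and is weighted to the brightest of them. The part of these markers in the Kyat3 values was not tested.

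Kyat3 signal fell 5.99-fold in the knockdown arrays on the probe with the higher mean signal (A_55_P2058122). Its log2 signal was 0.58, 0.45 and 0.48 in the 3 control arrays and -2.03, -2.12 and -2.08 in the 3 knockdown arrays. The groups were far apart and each was tight, with a mean of 0.50 ± 0.067 for control and -2.08 ± 0.044 for knockdown (SD, n = 3 each). The difference, knockdown minus control, was -2.58 (log2, SE 0.055). Because Kyat3 was chosen by the size and tightness of this change, the SE makes no allowance for that choice. In intensity units, the same probe read 1128, 1010 and 1047 in control and 183, 165 and 172 in knockdown, which left 16.7% of the control signal. Each of the 6 arrays read this probe well above background, so the knockdown level was a measured one and not a limit of detection. In these cultures, fewer cells that express the gene and less Kyat3 RNA per cell cannot be told apart.

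A second Kyat3 probe (A_55_P2092668) gave a dimmer signal with the same order of groups. It read -4.01, -4.07 and -3.90 (log2) in control and -6.16, -6.31 and -5.73 in knockdown, with means of -3.99 ± 0.084 and -6.07 ± 0.30 (SD, n = 3 each). The groups did not overlap, and the signals differed by -2.07 (log2, SE 0.16). This probe was well above background on the 3 control arrays but on only 1 of the 3 knockdown arrays, so its knockdown level was mostly not measured and no fold is given. Both probes carry the same transcript accession, and they read the same RNA extracts, so the second is not a further replicate.

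**Figure D1:**
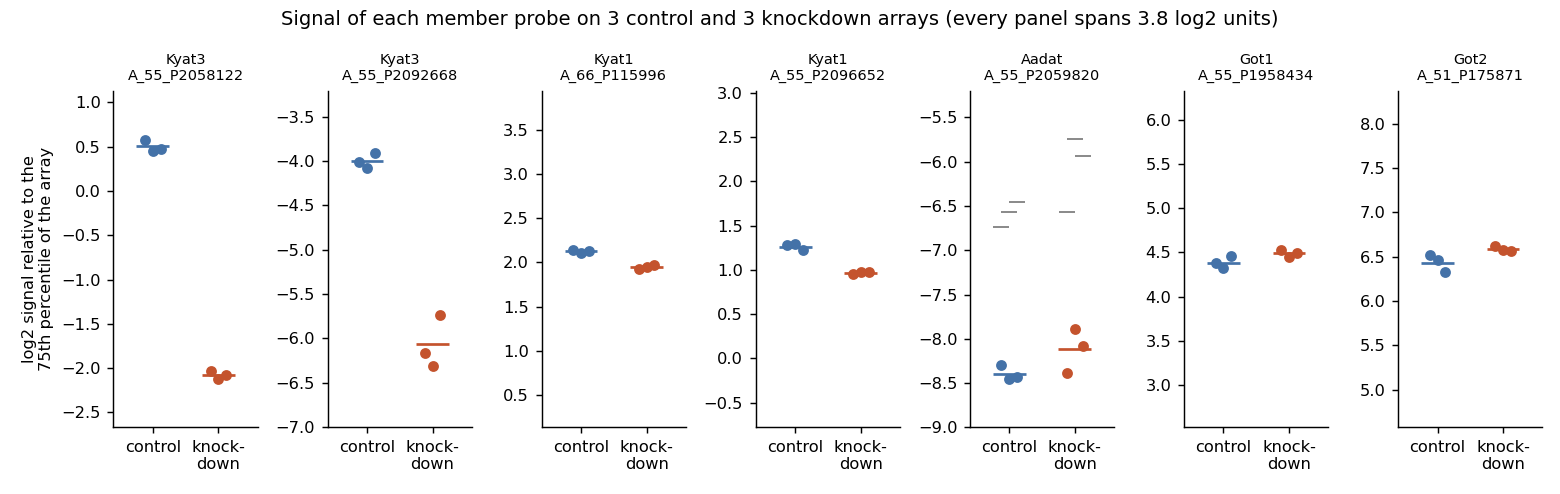
log2 signal relative to the 75th percentile of each array (y axis, each panel spanning 3.8 log2 units) for the 7 member probes in 3 control arrays (blue points) and 3 knockdown arrays (orange points). Horizontal bars are group means, and grey ticks in the Aadat panel are the dimmest signal well above background on each array. Both Kyat3 probes read more than 2 log2 units lower in knockdown, the Kyat1 probes shift by less than 0.3, and Aadat stays under the grey ticks.

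Among all genes, 824 of 16514 were called lower, which is 4.99%, and 645 were called higher, which is 3.91%, or 8.9% in either direction. Kyat3 was 1 of the 4 tested members and the only member called, and it was the gene the selection rested on. By size of change its rank was 6 among the 824 genes called lower. Among the 749 of these with a probe well above background on every array its rank was 5, between Aldoc at -2.59 (log2, SE 0.30) and B4galnt4 at -2.49 (SE 0.072). The median change over the 4 tested members was -0.035 on the log2 scale, against 0.0054 over all genes tested.

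**Figure D2:**
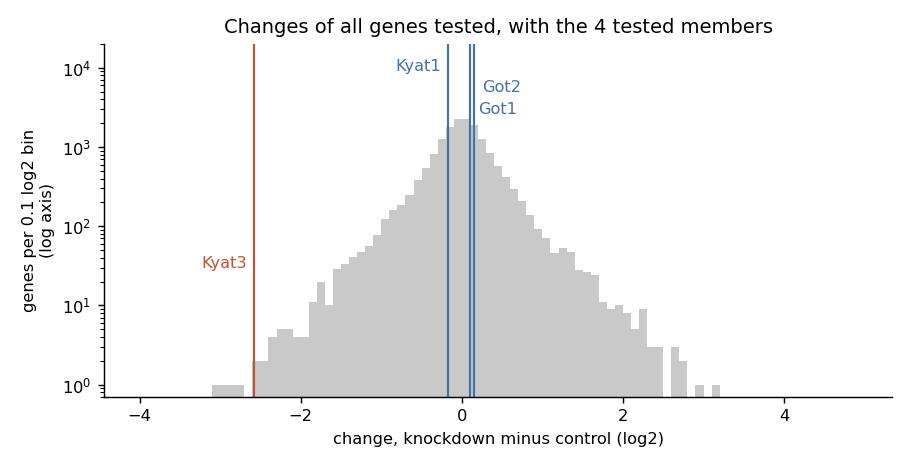
Number of genes (y axis, log scale) by change in log2 signal, knockdown minus control (x axis, bins of 0.1), over the 16514 genes tested. Vertical lines mark the 4 tested members, of which Kyat3 at -2.58 lies in the lower tail while Kyat1 at -0.17, Got1 at 0.10 and Got2 at 0.15 lie near the centre.

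Kyat1, the closest relative of Kyat3 among the members, differed little between the groups. Its probe A_66_P115996 read 2.14, 2.11 and 2.13 (log2) in control and 1.93, 1.95 and 1.98 in knockdown. All 3 knockdown arrays lay below all 3 control arrays, as they did for 27.0% of all genes tested. The difference was -0.17 (log2, SE 0.040, 95% confidence interval -0.27 to -0.073, limma adjusted p = 0.0340), a 1.13-fold change that stayed under the minimum fold. The other probe of the gene (A_55_P2096652) read 1.28, 1.29 and 1.22 in control and 0.95, 0.97 and 0.98 in knockdown, again without overlap. Its difference was -0.29 (log2, SE 0.041, 95% confidence interval -0.40 to -0.19, limma adjusted p = 0.00804), or 1.22-fold, and it was likewise under the minimum fold. The result for the first probe was borderline, since its adjusted p was not below 0.05 in 15 of 23 alternative settings, including each that left out 1 array. The share of all genes that were lower at this adjusted p with no minimum fold was 15.7%.

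Neither aspartate aminotransferase gene passed the test. Got1 read 4.38, 4.32 and 4.46 (log2) in control and 4.53, 4.45 and 4.49 in knockdown, and the groups overlapped. The difference was 0.10 (SE 0.054, 95% confidence interval -0.034 to 0.24, limma adjusted p = 0.243). Got2 read 6.51, 6.46 and 6.33 in control and 6.62, 6.58 and 6.57 in knockdown, with all knockdown arrays above all control arrays, as for 27.7% of all genes. Its difference was 0.15 (SE 0.062, 95% confidence interval -0.0046 to 0.31, limma adjusted p = 0.147). A p above the threshold does not show that these levels were equal, but the intervals reached no further than 0.24 and 0.31 log2 units. With signals scaled to the array median instead, the Got1 difference was -0.013, the only reversal of its sign over 23 alternative settings. In limma the Got1 adjusted p was below 0.05 in 1 of the 23, Normexp with quantile normalization, where the difference was 0.23 (adjusted p = 0.0181). The Got2 difference kept its sign in all 23 settings, with an adjusted p below 0.05 in 3 of them. Settings that altered only the filter, the variance estimate or the fold threshold could not move either difference. Those that altered only the fold threshold also kept the adjusted p of the main fit, so the 23 are not independent checks.

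The Aadat probe (A_55_P2059820) was not well above background on any of the 6 arrays and was not tested. It read -8.30, -8.45 and -8.44 (log2) in control and -8.39, -7.89 and -8.08 in knockdown, and the groups overlapped. The dimmest probes well above background read -6.74 to -5.74 on the 6 arrays, so that these values are below what the arrays could measure and no fold is given.

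The changes of Kyat3 were set beside those of all other genes with a probe well above background on every array, 13976 in number, after each gene had been centred on its own control mean. Likeness was the Euclidean distance over the 6 arrays, which uses the same contrast that selected Kyat3 and is therefore a description. The nearest gene was B4galnt4, which encodes a glycosyltransferase, at a distance of 0.233 with a difference of -2.49 (log2, SE 0.072). Lix1 followed at 0.385 with -2.39 (SE 0.086), then Rec8, a meiotic cohesin subunit, at 0.461 with -2.33 (SE 0.042). H2-T10, an MHC class I gene whose near-identical relatives make its probe uncertain, lay at 0.564 with -2.31 (SE 0.12). Lpin1, a phosphatidate phosphatase, lay at 0.609 with -2.82 (SE 0.17). With Normexp background correction the differences of B4galnt4 and H2-T10 were smaller, -1.43 and -1.52 with scaling to the 75th percentile, and the distances were not recomputed under it. The other members were far from this pattern, with Kyat1 at rank 3475, Got1 at rank 9040 and Got2 at rank 9979.

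The remaining genes of kynurenine and aminotransferase metabolism were taken from 9 lists of 85 genes, of which 71 were tested. Of these, 3 were called lower, or 4.23%, and 1 was called higher, or 1.41%, beside the 4.99% and 3.91% of all genes. Their median change was -0.041 (log2), against 0.0054 over all genes. With no minimum fold, 14 were lower (19.7%) and 10 higher (14.1%), where 15.7% of all genes were lower and 15.7% higher.

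Upstream and downstream enzymes of the kynurenine pathway were called in neither direction, 0 of 6 tested, and 0 of 6 had an unadjusted limma p below 0.05, a threshold that 46.1% of all genes passed. Genes for the first, rate-limiting step, Tdo2, Ido1 and Ido2, were not well above background on any array, and neither were Kynu and Acmsd. The 5 that were measured were Il4i1, an amino acid oxidase, at 0.0099 (log2), Afmid, the formamidase that releases kynurenine, at 0.14, Kmo, the monooxygenase that competes for kynurenine, at 0.24, Haao at -0.037 and Qprt at 0.22. Their adjusted p-values in limma lay between 0.236 and 0.954.

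In the rest of tryptophan metabolism, 1 of 7 tested genes was called. Tph2, the neuronal tryptophan hydroxylase of serotonin synthesis, read -0.37, -0.31 and -0.39 (log2) in control and -1.22, -1.29 and -1.15 in knockdown. It fell by 0.86 on the log2 scale (SE 0.054, limma adjusted p = 0.000922). Of the carriers of kynurenine and kynurenic acid, 0 of 6 tested were called (2 at an unadjusted limma p below 0.05), and the largest difference past the adjusted p was that of Slc7a5, the large neutral amino acid transporter subunit, at -0.47 (SE 0.053, limma adjusted p = 0.00418). Its 2 probes disagreed in size, and their mean gave -0.31. Among the receptors, 0 of 7 tested were called (3 at an unadjusted p below 0.05), and the largest such difference was that of Grin1, the obligate NMDA receptor subunit, at -0.34 (SE 0.058, limma adjusted p = 0.0143). A dimmer Grin1 probe differed by -0.16 with overlapping groups (limma adjusted p = 0.651). The Grin1 adjusted p was not below 0.05 in 8 of 23 alternative settings. The aryl hydrocarbon receptor gene Ahr was itself not well above background, and neither were its targets Cyp1a1, Cyp1a2, Cyp1b1 and Ahrr. Of its targets, 0 of 4 tested were called (3 at an unadjusted limma p below 0.05). Nqo1 differed by 0.51 (SE 0.057, limma adjusted p = 0.00415) and was under the minimum fold, whereas Aldh3a1 differed the other way by -0.36 (SE 0.11, limma adjusted p = 0.0786) and did not pass. These genes under the minimum fold, and those of the next paragraphs, were picked for their size of change within their list after the values were seen.

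Other aminotransferases went in both directions. Of 15 tested, Abat, which degrades GABA, was called lower and Accsl, which resembles an aminocyclopropane carboxylate synthase, was called higher. Abat read 2.83, 2.71 and 2.80 (log2) in control and 1.98, 1.94 and 1.85 in knockdown, a difference of -0.86 (SE 0.059, limma adjusted p = 0.00115). Accsl read -3.42, -3.52 and -3.35 in control and -2.44, -2.38 and -2.57 in knockdown, a difference of 0.97 (SE 0.075, limma adjusted p = 0.00154). Neither gene had overlapping groups, which was so in the downward direction for 27.0% and in the upward direction for 27.7% of all genes. Oat, the ornithine aminotransferase, differed by -0.49 (SE 0.047, limma adjusted p = 0.00258) and was under the minimum fold, and in all 4 of the 15 passed the adjusted p downwards and 4 upwards.

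No gene was called in the lists for the malate-aspartate shuttle and glutamate and for the omega-amidase and sulfur amino acids. For the malate-aspartate shuttle and glutamate metabolism this was 0 of 11 tested (5 at an unadjusted limma p below 0.05), with changes from -0.36 to 0.32 (log2), of which the largest was that of Glul, glutamine synthetase, at -0.36 (SE 0.052, limma adjusted p = 0.00868). For the omega-amidase step, which removes the products of glutamine transamination, and sulfur amino acid metabolism it was 0 of 12 tested, with 7 at an unadjusted p below 0.05, beside 46.1% of all genes. There Cdo1, the cysteine dioxygenase, showed the largest change past the adjusted p at 0.51 (SE 0.13, limma adjusted p = 0.0455). That pass was lost in 13 of 23 alternative settings, and the difference was 0.22 and 0.15 under the Normexp background corrections. In this list 2 genes passed the adjusted p downwards and 3 upwards. The omega-amidase gene Nit2, named for its step and not its size of change, was among the latter at 0.39 (SE 0.044, limma adjusted p = 0.00408).

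Of the listed genes that supply the cofactor pyridoxal phosphate, 1 of 3 tested was called lower and none higher. Pdxk, the kinase that phosphorylates pyridoxal, read 3.79, 3.72 and 3.76 in control and 3.07, 3.13 and 3.09 in knockdown on its brightest probe, a difference of -0.66 (SE 0.044, limma adjusted p = 0.00108). Its other 2 probes differed by -0.073 and -0.038 and were not called, so the probes of Pdxk disagree, and the mean over its probes, -0.26, was not called.

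**Figure D3:**
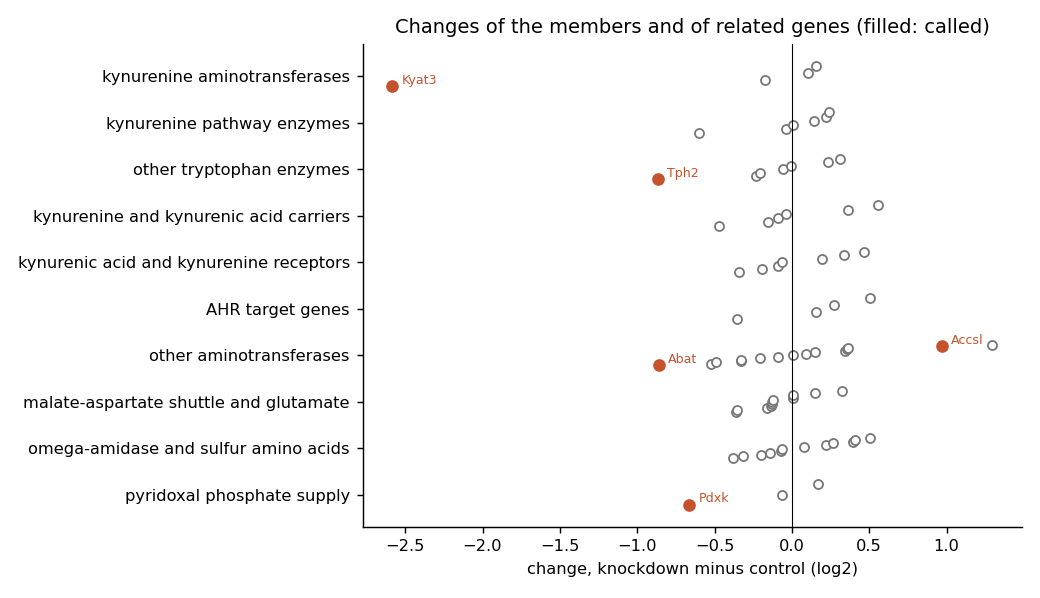
Change in log2 signal, knockdown minus control (x axis), of each tested gene of the kynurenine aminotransferases and of 9 related lists (rows). Filled points are genes called and open points are genes not called, including a few never well above background such as Tdo2 at -0.60 and Agxt at 1.30. Kyat3 at -2.58 is the leftmost filled point, followed by Tph2 and Abat at -0.86.

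No gene measured on either side of Kyat3 on chromosome 3 was called lower. The 3 nearest on one side were Gbp2, Gbp2b and Gbp3, guanylate-binding proteins of interferon responses with close relatives that could share signal. Gbp3 was called higher at 1.23 (log2, SE 0.10, limma adjusted p = 0.00177), Gbp2 differed by 0.27 (SE 0.082, limma adjusted p = 0.0746) and Gbp2b was not tested. On the other side, Gtf2b, a general transcription factor, differed by 0.064 (SE 0.046, limma adjusted p = 0.381) and Pkn2, a protein kinase, by 0.35 (SE 0.061, limma adjusted p = 0.0162), while the next gene had no probe. The differences of Gbp2 and Gtf2b changed sign under another scaling or background correction. With the same 3 genes on each side of every member, 24 of 30 neighbours were tested. None of the 24 was called lower in limma, with 3 lower and 9 higher at an unadjusted p below 0.05, where 22.9% of all genes were lower and 23.2% higher. Of the 24, 3 were called higher, beside 3.91% of all genes, and these were Gbp3, Lrrc8a beside Kyat1 at 0.59 (SE 0.049) and Mfap3l beside Aadat at 0.69 (SE 0.11). The call was lost in 8 of 23 alternative settings for Lrrc8a, including the mean of its probes. It was lost in 7 of 23 for Mfap3l and in 2 of 23 for Gbp3. Entpd7 near Got1, singled out after the values were seen, was well above background on 1 control array and on no knockdown array, and its adjusted p of 0.0511 in limma missed the threshold.

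The promoter windows printed above were not used in choosing the members and were read for CCAAT on both strands, from 250 bases before to 50 bases after the start. Kyat3 had 3 such motifs, beginning 90, 73 and 42 bases before the start, with 17 and 31 bases between successive motif starts. The first of them lay on the other strand and the next ones on the strand of the gene. Of the 32851 windows in the table, 37.4% held at least 1 motif and 3.37% held at least 3. Among the 13115 tested genes with a window, these shares were 42.6% and 5.02%. A tested gene with several windows was counted, here and below, by the window with most motifs. Got1 had 6 motifs, 5 of them before the start, Kyat1 and Aadat had 1 each, and Got2 had none. Got1 had more motifs than Kyat3 in this window and was not called, and the part of motif number in either change was not tested. In the 150 bases before the start alone, both genes had 3.

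**Figure D4:**
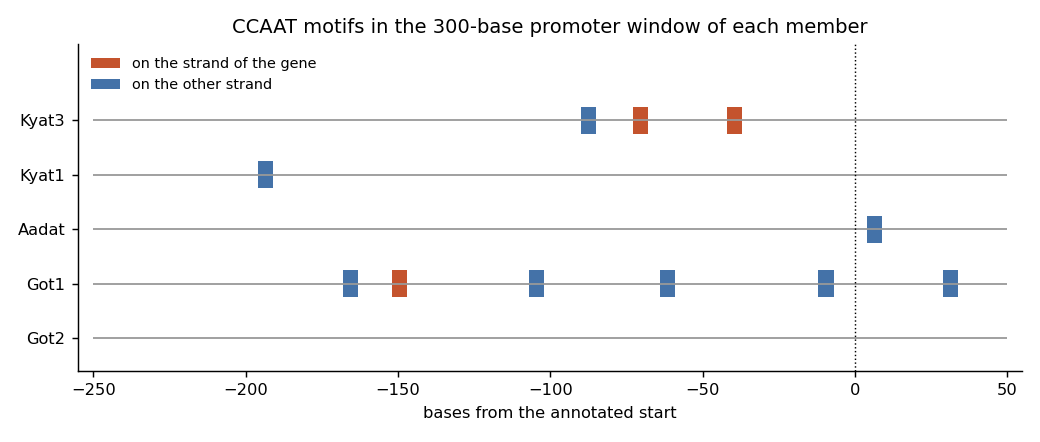
Position of each CCAAT motif in bases from the annotated start (x axis, dotted line at the start) in the 300-base window of each member (rows). Orange blocks are motifs on the strand of the gene and blue blocks on the other strand, with 3 in Kyat3, 1 in Kyat1, 1 in Aadat, 6 in Got1 and none in Got2.

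Over the 13115 tested genes with a window, the share called lower was 3.88% of 7531 genes with no CCAAT, 5.34% of 3574 genes with 1, 6.88% of 1352 genes with 2 and 12.8% of 658 genes with 3 or more. Kyat3 was 1 of the 84 genes called lower among those 658, and Got1 was among the rest. The share called higher was 4.14%, 3.44%, 3.11% and 2.13% in the same order. Of the genes nearest to Kyat3 in their changes, B4galnt4 and Rec8 had 3 motifs each, Lix1 and Lpin1 had none, and H2-T10 had no window. Of the genes beside Kyat3, Gtf2b and Gbp2b had 1 motif each, and Gbp3, Gbp2 and Pkn2 had none. The longer spellings CCAATCA and CCAATGA were found in 11.6% of all windows, and there were none in Kyat3, 2 in Got1 and 1 in Kyat1. A match of letters is a description of the window and does not show binding.

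**Figure D5:**
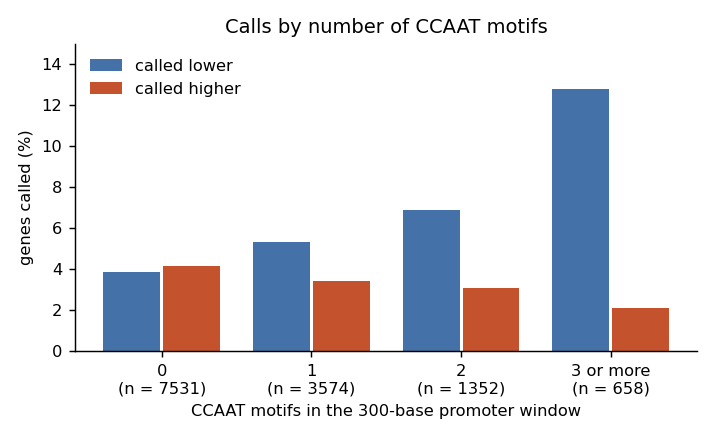
Share of tested genes called lower (blue bars) or higher (orange bars), in percent (y axis from 0), by number of CCAAT motifs in the 300-base promoter window (x axis, with the number of genes). The share called lower is 3.88% without a motif and 12.8% with 3 or more, the class that holds both Kyat3 and Got1.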

How the data were processed

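RNA of N2a cells was measured on 6 Agilent SurePrint G3 mouse arrays. Per the file headers, the authors' scanner tables came from Feature Extraction 10.10.1.1 with annotation on mm9, and hold processed intensity, already background-subtracted and detrended, median spot and background intensity, and flags of 0 or 1. The deposited series matrix holds normalized log2 values. Here, processed signals of 55681 probes were averaged over spots, divided by the 75th percentile of the array and log2-transformed. Probes were kept if above the 20th percentile on every array of at least 1 group, which left 42208 (245 lacked a value on some array). Control against knockdown was fitted with lmFit and eBayes of limma 3.58.1 (R 4.3.3), with two-sided p-values under Benjamini-Hochberg adjustment over all probes, and each gene was given by its probe with the highest mean signal.

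Accessions were named through the RefSeq gene table of GRCm38.p6, which gave 21609 of the tested probes a symbol. All 7 member probes matched. Because that build differs from the array annotation, no gene coordinates are given beyond those of the promoter windows. Identity between the proteins was not analysed here. Genes were named by rule: the members, the NF-Y genes, every called gene of the pathway lists (up to 4 per list), the 3 nearest genes on each side of Kyat3, called neighbours of other members and the 5 genes most like Kyat3. Outside this rule, and after their values were seen, Aldoc, Entpd7, Aldh3a1, Nit2, single markers and the largest change under the minimum fold in a list were also named. One gene of the lists is not reported here. The members and lists were chosen with earlier results of these data known. The Normexp background alternative (offset 50) used median signals, since a mean signal is not among the columns used. Samples with the same replicate number did not deviate together (r = 0.016, 0.066 and 0.0023), so the numbers were not taken as pairs. Precision is limited by the number of arrays.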

Additional observations from a re-analysis of the deposited data

How the results depend on the processing

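Over 23 alternative settings the Kyat3 difference lay between -2.70 and -2.19 (log2), and between -2.61 and -2.54 with 1 array left out. Settings that altered only the filter, the variance estimate or the fold threshold left the difference of a gene unchanged. Those of the fold threshold also kept its adjusted p, so counts out of 23 are not counts of independent checks. Within slide row 1, where a single knockdown array met 3 control arrays, the Kyat3 difference was -2.54, no gene was called in either direction (0 lower, 0 higher), and the lowest limma adjusted p was 0.0518, with 4891 genes at an unadjusted p below 0.05. Counts of genes called lower were 2591 with no minimum fold and 286 with a fold above 2, and of genes called higher 2595 and 182. Scaling to the median moved the median of all genes to -0.11 and the calls to 1174 lower and 382 higher, so that 75.4% of calls were lower against 56.1%. Calls higher were 278 with Normexp background and the 75th percentile (67.7% of calls lower) and 286 with Normexp and quantile normalization (66.1%). With 1 array left out, 745 to 832 genes were called lower and 547 to 606 higher. In the pathway lists, 5 genes were lower with median scaling, 14 were lower and 10 higher with no minimum fold, 0 and 0 with a fold above 2, 0 and 0 within the slide row, and 0 were higher with Normexp and quantile normalization. List genes called higher numbered 1 to 2 with 1 array left out, the latter without control replicate 3. Of the chromosome neighbours, 1 was called lower with quantile normalization, median scaling, no minimum fold, array weights or the replicate block. Neighbours called higher numbered 1 with median scaling, with Normexp and the 75th percentile, or with a fold above 2, 7 with no minimum fold, and 0 with Normexp and quantile normalization or within the slide row. With no minimum fold Kyat1 counted as called at -0.17, and over all settings it ranged from -0.29 to -0.046, with an adjusted p from 0.00374 to 0.610 that was not below 0.05 in 15 of 23. Signs turned for Got1 (-0.013) and Gtf2b (-0.053) under median scaling and for Gbp2 (-0.0073) under Normexp and quantile normalization. Within 150 bases before the start, 24.5% of windows held CCAAT and Kyat3 and Got1 had 3 each, and the longer spellings were in 11.6% of windows, 0 in Kyat3 and 2 in Got1. With the replicate block 764 genes were called lower and 518 higher, and no call on a member changed. The causes were not tested.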
